A study of Homo sapiens with 4 samples.

Results

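The 10 genes described here encode receptors of the Wnt pathway at the cell surface: the Frizzled genes FZD1 to FZD7, the co-receptor genes LRP5 and LRP6, and the R-spondin receptor gene LGR4. They were chosen by gene symbol, and all 10 were found among the 26255 genes listed for each library. RNA sequencing was carried out on HCT116, an established human colorectal cancer line, with 2 libraries of control cells (EV control 1 and 2) and 2 libraries of cells in which C14orf159 was knocked out (KO 1 and 2). The labels describe the control cells as carrying an empty vector, whereas the column headers of the control files read AAVS1 (a locus used for edits thought to be neutral), and those of the knockout files sgDGLUCY. C14orf159, now named DGLUCY, encodes a protein of the mitochondrial matrix, and the study asked how it bears on migration, invasion and spheroid growth. The sources used here do not say whether a KO library came from a single clone or from a pool.

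A Wnt protein binds the cysteine-rich domain of a Frizzled, a receptor that spans the membrane several times, and draws LRP5 or LRP6 to it. The joined receptors recruit Dishevelled and Axin and so slow the destruction of β-catenin, which then acts with TCF/LEF factors on target genes. The ubiquitin ligases RNF43 and ZNRF3 remove Frizzled and LRP6 from the surface, and R-spondins, bound to LGR4, LGR5 or LGR6, hold these ligases back. In the intestine this pathway maintains the stem cells of the crypt. HCT116 cells carry an activating mutation of CTNNB1, the β-catenin gene, so the pathway is active in them downstream of the receptors.

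The values are FPKM, which relate the fragments of a gene to its length and to the depth of the library, scaled by the authors. Being given per length, they allow a rough comparison between genes. That comparison depends on the annotation and transcript lengths used, which the sources used here do not state. Each value is a mean over a culture, so fewer cells with a transcript and less of it per cell cannot be told apart. The libraries held an estimated 12.5 to 13.4 M fragments (M for mega). C14orf159 itself stood at 16.2 and 16.4 FPKM in the EV controls, 2.52 in KO 1 and 10.8 in KO 2 (log2 difference -1.42, SE 0.57, limma adjusted p = 0.314). Spread was taken over the 9555 genes whose mean lay from 1 to 30 FPKM, as the receptors' means do. Log2 ratios between KO 1 and KO 2 had a robust SD of 0.30, and those between the EV controls 0.14. Against EV control 1 and 2 it was 0.28 and 0.30 for KO 1, and 0.31 and 0.35 for KO 2. The KO libraries thus differed from each other about as much as from the controls, and each is also given alone. Of 6 epithelial markers 5 were expressed (EPCAM, KRT8, KRT18, KRT19 and CDH1, with VIL1 at or near 0), and their summed level was 3362 to 3535 FPKM in the EV controls and 3342 and 3704 in the KO libraries. Keratins make up most of that sum, whereas EPCAM had 237 and 236 FPKM in the controls, 284 in KO 1 and 314 in KO 2, and CDH1 22.8 and 22.9, 29.5 and 24.8 in the same order (limma adjusted p = 0.238 and 0.350); the part of these epithelial markers in the receptor values was not tested. The summed levels of 5 fibroblast, 3 endothelial and 3 immune markers each stayed under 0.21 FPKM in every library, and COL1A2, DCN, LUM, PTPRC and CD3E were listed at 0 in all.

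All 10 receptor genes reached the minimum level for testing, at least 1 FPKM in at least 2 of the 4 libraries. None of the 10 receptor genes passed the test of KO against EV control (limma, Benjamini-Hochberg adjusted p under 0.05 over 12701 genes tested), a call made for 0.110% of all genes tested (14 genes), 0.0551% in each direction. The largest differences were a higher level of FZD3 and a lower level of FZD1 in both KO libraries. At an unadjusted p under 0.05, FZD3 was the 1 receptor gene higher (9.23% of all genes tested) and FZD1 the 1 lower (7.22%), and with either EV control library left out neither gene reached that level. Both KO libraries lay above both EV controls for FZD2, FZD3, FZD4, FZD7 and LGR4, that is 5 of 10 genes, against 26.5% of all genes tested. They lay below both for FZD1 and FZD6, 2 of 10, against 25.6%. The median log2 difference of the 10 genes was 0.07 (0.03 with KO 1 alone and 0.11 with KO 2 alone), and that of all genes tested was 0.00. With 2 libraries a group, an exact permutation test of a single gene cannot go below p = 0.333.

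FZD6 and LRP5 were the most abundant of these transcripts by FPKM. In the EV controls FZD6 averaged 25.3 FPKM, above 72.4% of all genes tested, and LRP5 18.95 FPKM, above 65.3%. FZD7 (5.83), LRP6 (5.16), FZD2 (5.08) and FZD1 (4.13) followed and then FZD5 (2.95), FZD4 (2.65), LGR4 (2.35) and FZD3 (1.03 FPKM). FZD3 lay near the minimum level for testing, and 2.0% of tested genes had a lower mean. In this order of EV control means, neighbouring genes had ranges that did not overlap, except LRP6 and FZD2. In the KO libraries FZD6 and LRP5 overlapped, with FZD6 first in KO 1 and LRP5 first in KO 2. The levels of FZD5, FZD4 and LGR4 in the KO libraries all lay within the range of FZD1, so the lower part of the order was not kept. FZD1 held place 6 in the EV controls and KO 1 and place 9 in KO 2. FZD5 went from place 7 in the EV controls to 9 in KO 1 and 8 in KO 2. In the same libraries FZD4 went from 8 to 7 and 6, and LGR4 from 9 to 8 and 7. FZD2 went from place 5 to 4 in both KO libraries, ahead of LRP6.

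**Figure D1:**
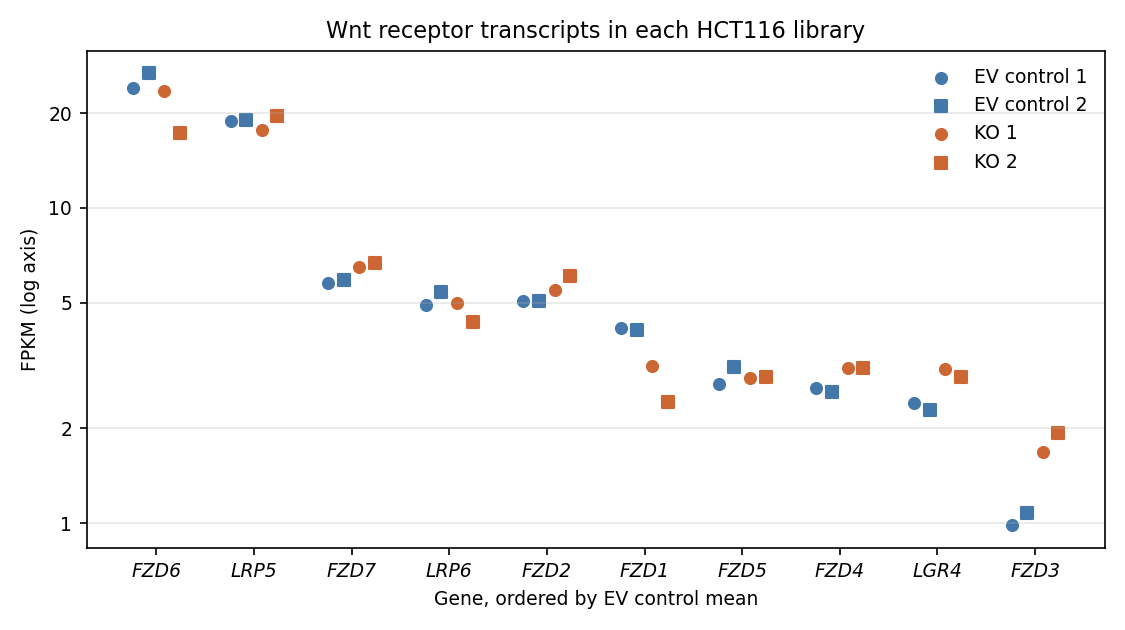
FPKM (log axis) of the 10 receptor genes in each library, ordered by EV control mean; blue points are EV controls, orange points KO libraries, circles replicate 1 and squares replicate 2. FZD6 and LRP5 lie between 17.3 and 26.7 FPKM in all libraries, all other genes under 7 FPKM, and the colours separate most widely for FZD1 and FZD3.

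FZD1, FZD2 and FZD7 form the subfamily of most similar Frizzled proteins, and all are known as receptors in β-catenin signalling. FZD1 stood at 4.15 and 4.11 FPKM in the EV controls, 3.16 in KO 1 and 2.42 in KO 2. Both KO libraries were lower than both controls, at 76.4% and 58.6% of the control mean. The log2 difference of FZD1, on the log2(FPKM + 1) scale used for all differences, which understates the change of low genes, was -0.44 (SE 0.13, 95% interval -0.80 to -0.09) and did not pass (limma adjusted p = 0.246). The KO 2 value alone gave -0.59 with limma adjusted p = 0.0275, a fit in which the lone KO library is assumed to vary like the EV controls and which called 6.62% of all genes tested lower and 10.9% higher. The KO 1 value alone gave -0.30 (adjusted p = 0.113).

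The relatives of FZD1 lay on the other side. FZD2 had 5.07 and 5.08 FPKM in the EV controls, 5.48 in KO 1 and 6.10 in KO 2. The KO libraries were above the controls without overlap, by a log2 difference of 0.16 (SE 0.099, 95% interval -0.10 to 0.41, limma adjusted p = 0.473). FZD7, the Frizzled gene most often tied to intestinal stem cells, had 5.76 and 5.90 FPKM in the EV controls, 6.505 in KO 1 and 6.69 in KO 2. This again was higher without overlap, by 0.15 (SE 0.088, 95% interval -0.07 to 0.38, limma adjusted p = 0.437). The ratio of FZD7 to FZD1 was 1.39 and 1.44 in the EV controls, 2.06 in KO 1 and 2.76 in KO 2. The ratio of FZD2 to FZD1 was 1.22 and 1.24 in the controls, 1.73 in KO 1 and 2.52 in KO 2. Both ratios have FZD1 as denominator, so the lower level of FZD1 enters each of them. They were not compared with ratios of other gene pairs. These genes resemble each other in sequence, and the sources used here do not say how reads that match more than 1 gene were treated.

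FZD3 and FZD6 form another subfamily, known above all for planar cell polarity, the alignment of cells within a sheet. FZD3 was listed at 0.985 and 1.08 FPKM in the EV controls, 1.68 in KO 1 and 1.94 in KO 2. Both KO libraries were higher than both controls, at 162% and 188% of the control mean. The log2 difference of 0.46 (SE 0.13, 95% interval 0.12 to 0.81) was the largest among the receptor genes and did not pass (limma adjusted p = 0.240), and with a pseudocount of 0.1 in place of 1 it was 0.75. FZD3 reached the minimum level in both KO libraries and in 1 EV control, so a lower level in the KO libraries could have kept it out of the test; with no filter its adjusted p was 0.292 (limma). FZD3 was the 1 receptor gene at least 1.5-fold higher in KO 1 taken alone (5.87% of all genes tested) and also in KO 2 taken alone (6.45%). No receptor gene was 1.5-fold lower in KO 1 (3.76% of all genes tested), and FZD1 was the 1 in KO 2 (4.91%).

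FZD6 differed in the other direction from FZD3, and mostly in KO 2. It had 23.9 and 26.7 FPKM in the EV controls, 23.5 in KO 1 and 17.3 in KO 2. KO 1 lay just under the lower control, at 92.8% of the control mean, and KO 2 at 68.4%. The log2 difference was -0.31 (SE 0.16, 95% interval -0.73 to 0.11, limma adjusted p = 0.400). With KO 2 alone it was -0.52 (limma adjusted p = 0.0248, the lone library being assumed to vary like the controls), in the same fit that called 6.62% of all genes tested lower, and with KO 1 alone -0.10 (adjusted p = 0.454). The antisense gene BAALC-AS1 overlaps FZD6 and had 0.397 and 0.516 FPKM in the controls, 0.983 in KO 1 and 0.273 in KO 2. Its part in the FZD6 values was not tested.

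FZD4 and FZD5 were the remaining Frizzled genes above the minimum level. FZD4, which besides Wnt proteins binds the growth factor Norrin together with LRP5, had 2.68 and 2.61 FPKM in the EV controls, 3.11 in KO 1 and 3.10 in KO 2. The KO libraries were nearly equal and above both controls, with a log2 difference of 0.17 (SE 0.10, 95% interval -0.10 to 0.44, limma adjusted p = 0.463). PRSS23 overlaps FZD4 on the opposite strand and stood at 2.9996 and 2.67 FPKM in the EV controls, 1.88 in KO 1 and 1.19 in KO 2. The kit keeps the strand, but the sources used here do not say whether the counting used it, and the part of PRSS23 in the FZD4 values was not tested. FZD5, known for its role in the maturation of Paneth cells in the crypt, had 2.76 and 3.13 FPKM in the EV controls, 2.88 in KO 1 and 2.90 in KO 2. Its KO values lay between the control values, and the interval of the log2 difference ran from -0.31 to 0.27 (limma adjusted p = 0.946).

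**Figure D2:**
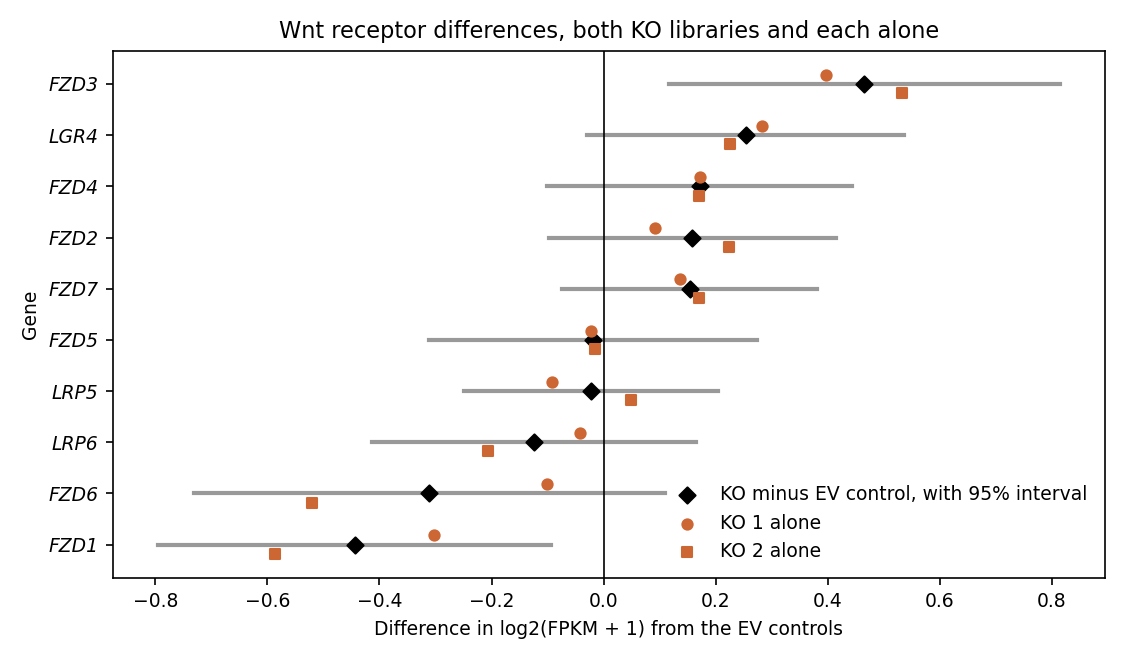
Difference in log2(FPKM + 1) from the EV controls for each receptor gene; diamonds are both KO libraries with the 95% interval of the limma fit, circles KO 1 alone and squares KO 2 alone. The intervals of FZD3 (0.12 to 0.81) and FZD1 (-0.80 to -0.09) leave out 0, all others include it, and for FZD6 the KO libraries stand at -0.10 and -0.52.

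Summed over the 7 Frizzled genes, the EV controls held 45.4 and 48.6 FPKM, KO 1 46.3 and KO 2 40.5. KO 1 thus lay between the controls and KO 2 below both. FZD6 made up 52.8% and 54.9% of that sum in the controls, 50.8% in KO 1 and 42.8% in KO 2. Without FZD6 the sum of the other 6 was 21.4 and 21.9 FPKM in the controls, 22.8 in KO 1 and 23.1 in KO 2, which is 105% and 107% of the control mean. FZD1 gave 9.16% and 8.45% of the Frizzled sum in the controls, 6.82% in KO 1 and 5.98% in KO 2. FZD3 gave 2.17% and 2.22% in the controls, 3.62% in KO 1 and 4.79% in KO 2.

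**Figure D3:**
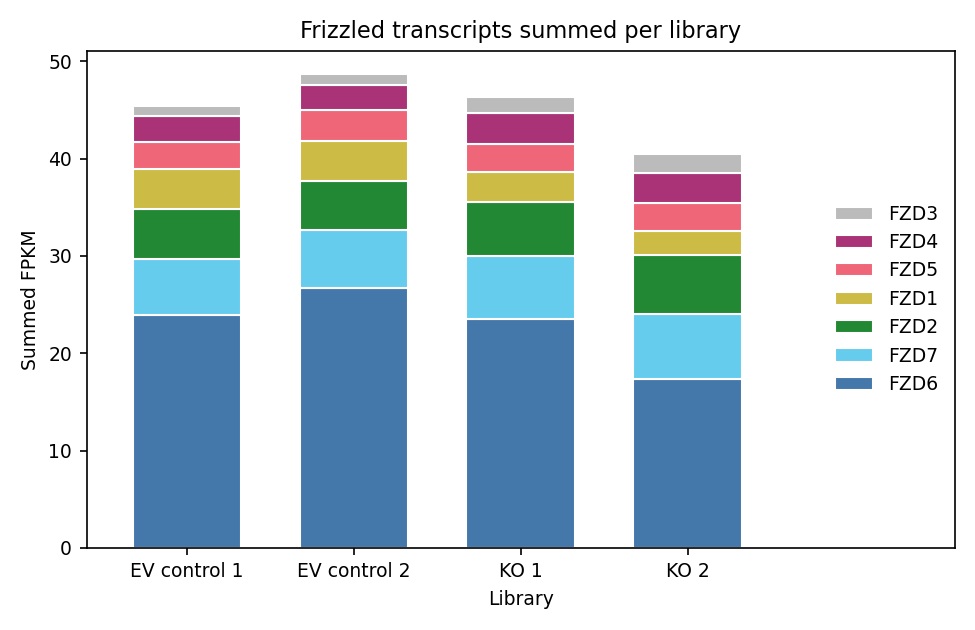
Stacked FPKM of the 7 Frizzled genes in each library, with no error since each bar is 1 library. The FZD6 segment is the largest in every library and is shortest in KO 2 (17.3 FPKM), where the whole bar is also the lowest at 40.5 FPKM.

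For both co-receptors the KO and EV control libraries overlapped. LRP5 had 18.92 and 18.99 FPKM in the EV controls, 17.7 in KO 1 and 19.6 in KO 2. KO 1 lay below the controls and KO 2 above them, with a log2 difference of -0.02 (SE 0.087, 95% interval -0.25 to 0.20, limma adjusted p = 0.914). LRP6, which with LRP5 carries the phosphorylated motifs that bind Axin, had 4.92 and 5.39 FPKM in the EV controls, 4.98 in KO 1 and 4.33 in KO 2. Here KO 1 lay within the control range and KO 2 below it (log2 difference -0.12, SE 0.11, 95% interval -0.41 to 0.16, limma adjusted p = 0.602). LRP5 exceeded LRP6 in every library, by 3.84 and 3.52 times in the controls, 3.56 in KO 1 and 4.53 in KO 2. BCL2L14 overlaps LRP6 on the other strand and was at most 0.0433 FPKM in any library.

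LGR4 was the sole R-spondin receptor gene above the minimum level. It had 2.41 and 2.29 FPKM in the EV controls, 3.07 in KO 1 and 2.91 in KO 2. Both KO libraries lay above both controls, at 131% and 124% of the control mean, and the log2 difference was 0.25 (SE 0.11, 95% interval -0.03 to 0.54, limma adjusted p = 0.338). Its paralog LGR5, a marker of crypt stem cells, was listed at no more than 0.0172 FPKM in any library, and LGR6 at no more than 0.0656. The antisense gene AC100771.2 overlaps LGR4 and is not among the genes listed for each library, so its part in the LGR4 values was not tested.

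Depth limits these values unequally. From transcript length, FZD6 and LRP5 rested on an estimated 844 to 1355 fragments per library and LRP6 on 558 to 724. The other receptor genes rested on 139 to 383 fragments by this estimate. The fewest were for FZD2 in EV control 1, where counting alone gives that value a relative error of 8.48%. The estimate takes the longest coding transcript, 13740 nt for FZD3 (of 3 coding transcripts) and 2112 nt for FZD2 (of 1). A shorter FZD3 transcript would lower the FZD3 estimate. KO 1 stood at 108% of the EV control mean for FZD2, and the counting error of that ratio was not estimated.

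Promoter sequences are shown for the 3 genes whose KO and EV control libraries did not overlap and whose RefSeq promoter was in the table used (GRCh38.p14, which is not the build of the deposited values). Each runs 5′ to 3′ on the strand of the gene up to the base before its first annotated exon, which leaves off the last 69 of the 250 bases for FZD1, and capitals mark CCAAT or its reverse complement ATTGG, the letters bound by the factor NF-Y. FZD1 lies on chromosome 7 (chr7:91264183-91264363, plus strand), FZD4 on chromosome 11 (chr11:86955396-86955645, minus strand) and LGR4 on the same chromosome (chr11:27472791-27473040, minus strand). Exons of other genes reach into the windows of FZD4 (AP001528.1) and LGR4 (AC100771.2).
FZD1: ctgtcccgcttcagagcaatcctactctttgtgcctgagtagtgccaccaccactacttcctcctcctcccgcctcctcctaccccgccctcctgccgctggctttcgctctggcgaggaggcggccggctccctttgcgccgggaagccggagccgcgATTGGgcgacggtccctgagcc
FZD4: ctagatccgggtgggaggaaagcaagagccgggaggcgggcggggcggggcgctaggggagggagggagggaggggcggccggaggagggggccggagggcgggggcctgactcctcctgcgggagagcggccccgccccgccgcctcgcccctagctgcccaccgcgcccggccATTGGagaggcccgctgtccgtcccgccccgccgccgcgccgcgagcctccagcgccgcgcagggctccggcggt
LGR4: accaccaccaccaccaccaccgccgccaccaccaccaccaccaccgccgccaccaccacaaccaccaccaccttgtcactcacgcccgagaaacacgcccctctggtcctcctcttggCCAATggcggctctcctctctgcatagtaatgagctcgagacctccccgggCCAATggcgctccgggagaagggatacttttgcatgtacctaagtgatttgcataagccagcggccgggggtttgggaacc
The letters CCAAT were searched on both strands of the 250 bases before the start, as were CTTTGA, which is part of the TCF/LEF motif, and ACGTG, which is part of the hypoxia response element. These motifs were chosen after the expression values were known, and the matches found do not overlap. FZD1 and FZD4 held CCAAT 1 time each and LGR4 2 times, and of the other 2 receptor genes in the table FZD5 held it 1 time and LRP5 did not. Of all 35116 promoters of the table, 32.0% held CCAAT. Neither CTTTGA (11.2% of all promoters) nor ACGTG (18.5%) was found in any of the 5. GC content was 65.2% for FZD1, 80.8% for FZD4, 76.8% for FZD5, 87.2% for LRP5 and 62% for LGR4, each above the median of 58% over all promoters.

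Other receptors and co-receptors were examined as a list of 13 genes, of which 7 were tested and 0 passed, with a median log2 difference of 0.16 (0.12 with KO 1 alone and 0.07 with KO 2 alone). PTK7, a kinase-like Wnt co-receptor, had 46.6 and 46.2 FPKM in the EV controls, 62.8 in KO 1 and 48.4 in KO 2, higher without overlap (log2 difference 0.24, limma adjusted p = 0.438). RYK, a Wnt receptor related to kinases, had the smallest difference in the list, with 31.6 and 31.4 FPKM in the controls, 30.3 in KO 1 and 32.6 in KO 2. The Dickkopf receptor gene KREMEN1 (log2 difference 0.14, limma adjusted p = 0.436) and the Wnt5a receptor gene ROR2 (0.12, adjusted p = 0.543) were also higher without overlap. Thus 3 of 7 tested genes lay above both controls (26.5% of all genes tested) and 0 below both (25.6%). KREMEN2, the other Dickkopf receptor gene, was higher by 0.16 with overlap (adjusted p = 0.582). In this list 0 genes had an unadjusted p under 0.05 (limma) in either direction. ADGRA2 and RECK, which act together as a WNT7 co-receptor, had KO libraries on opposite sides of the control mean: ADGRA2 stood at 91.2% of it in KO 1 and 148% in KO 2, and RECK at 153% in KO 1 and 96.1% in KO 2. Below the minimum level, FZD10 was listed at 0 in all libraries and FZD8 at 0 in all but KO 2 (0.0474 FPKM). FZD9 had 0.129 and 0.125 FPKM in the controls, 0.273 in KO 1 and 0.331 in KO 2, and ROR1 had 0.931, 0.883, 0.721 and 0.764 in the same order.

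Genes that set receptor turnover and maturation came next, 10 listed and 7 tested, of which 0 passed. Of these, 1 was higher at an unadjusted p under 0.05 in limma (9.23% of all genes tested) and 0 lower (7.22%). Their median log2 difference was 0.06, and its sign turned between the KO libraries (0.10 with KO 1 alone and -0.09 with KO 2 alone). That gene was RNF43, the ligase that removes Frizzled, with 7.96 and 8.30 FPKM in the EV controls, 29.9 in KO 1 and 19.7 in KO 2 (log2 difference 1.47, SE 0.20, limma adjusted p = 0.135). The related ligase gene ZNRF3 had 6.11 and 6.03 FPKM in the controls, 5.77 in KO 1 and 4.62 in KO 2, lower without overlap (-0.20, adjusted p = 0.474). TMEM59, which promotes the assembly of Wnt receptor clusters, differed by 0.22 (adjusted p = 0.312), and ATP6AP2, which links LRP6 to the proton pump, by -0.11 (adjusted p = 0.518).

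Among 24 genes for Wnt ligands, R-spondins and Norrin, 7 were tested and 0 passed. Unadjusted p-values under 0.05 (limma) were found for 3 higher genes, WNT3A, WNT6 and WNT7B (9.23% of all genes tested). WNT16 was the 1 lower gene at that level (7.22%). WNT3A and WNT6 reached the minimum level in the KO libraries alone, so their higher direction was set by the filter. That count is therefore no result for WNT3A and WNT6, and they are given as values. WNT3A had 0.471 and 0.507 FPKM in the EV controls, 1.45 in KO 1 and 1.58 in KO 2, and WNT6 had 0.414, 0.268, 1.32 and 2.32 in the same order. WNT7B had 2.203 and 1.98 FPKM in the EV controls, 2.96 in KO 1 and 3.51 in KO 2 (log2 difference 0.45, limma adjusted p = 0.232). WNT16, the most abundant ligand transcript, had 57.5 and 62.6 FPKM in the controls, 38.1 in KO 1 and 51.3 in KO 2 (-0.43, adjusted p = 0.291). Of 13 secreted antagonists 2 were tested and 0 passed, with 1 higher (NOTUM) and 0 lower at an unadjusted p under 0.05 (limma). NOTUM, which strips the lipid from Wnt proteins, differed by 1.45 (limma adjusted p = 0.0891). DKK1, which blocks LRP5 and LRP6, had 61.4 and 65.8 FPKM in the controls, 28.9 in KO 1 and 64.99 in KO 2 (-0.54, adjusted p = 0.515).

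All 18 genes of cytoplasmic transduction were tested, and 0 passed. At an unadjusted p under 0.05 (limma), 0 were higher (9.23% of all genes tested) and 0 lower (7.22%). Their median log2 difference was -0.06 (0.00 with KO 1 alone and -0.04 with KO 2 alone). The smallest p-values belonged to the kinase gene CSNK1A1 (-0.21, limma adjusted p = 0.356), CTNNB1 (-0.26, 0.368), the scaffold and target gene AXIN2 (0.33, 0.386) and APC, the scaffold of β-catenin destruction (-0.22, 0.439).

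**Figure D4:**
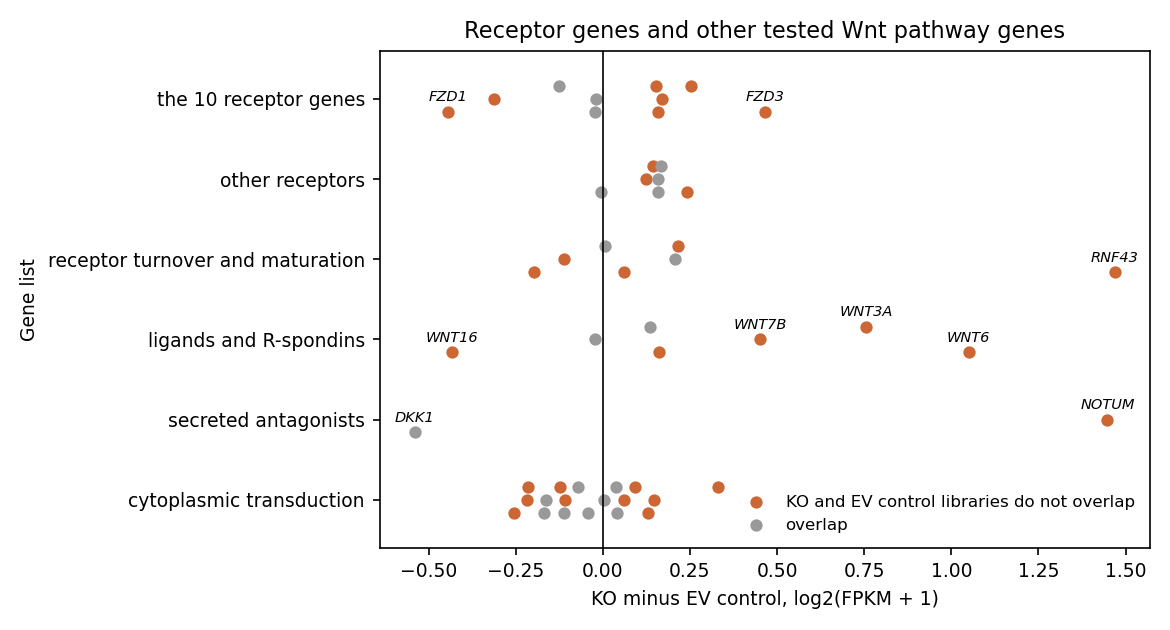
KO minus EV control difference in log2(FPKM + 1) of each tested gene, by list; orange points are genes whose KO and EV control libraries do not overlap, grey points those that overlap, and genes beyond 0.4 in either direction are named. The 10 receptor genes lie between -0.44 and 0.46, with RNF43 (1.47), NOTUM (1.45), WNT6 (1.05) and WNT3A (0.76) above them and DKK1 (-0.54) below them; WNT6 and WNT3A reached the minimum level in the KO libraries alone.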

How the data were processed

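The authors deposited 1 FPKM value per gene symbol and library, used as given; the file headers name no unit, and FPKM is read from the gene column tracking_id and from Cuffnorm 2.2.1, named with TopHat2 2.0.13, Bowtie2 2.2.3, SAMtools 0.1.19 and build hg19 per the submitters' processing notes. Annotation, strand use and the scaling of libraries are stated in no source used here. Poly(A) mRNA libraries were made with a stranded kit, per the labels' protocols. Nothing says that replicates were separate cultures, so the spread behind each p-value may be technical.

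Genes with at least 1 FPKM in at least 2 of 4 libraries (12701) were fitted as log2(FPKM + 1) with limma 3.58.1 (trend, R 4.3.3), with group alone in the model and Benjamini-Hochberg adjustment over all of them (threshold 0.05). The script was tested on simulated data. Fragments were estimated from 2009 genes with a single GENCODE 29 transcript of 1000 to 6000 nt, as the median of FPKM times kilobases between 0.06 and 0.1, a window that bounds the result, and from each receptor gene's longest coding transcript. These estimates are rough and cover counting error only. Members and lists were chosen with earlier results of these data known. Named genes were the 10 members, the targeted gene, all other receptors, and up to 4 tested genes per further list with the smallest p; other genes were named because they overlap a member or are markers. Alternatives were pseudocounts of 0.1 and 0.5, no filter or 5 FPKM, median-of-ratios scaling, quantile normalization, no trend, no small RNA genes, a replicate block, and leaving out each library.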

Additional observations from a re-analysis of the deposited data

How the results depend on the processing

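In every alternative that kept both KO libraries, 0 of the 10 receptor genes passed (limma, smallest adjusted p = 0.200, for FZD3 without the trend). With a filter at 5 FPKM, 6 of them were no longer tested, among them FZD1 and FZD3. Of those left, 0 higher and 0 lower had an unadjusted p under 0.05 (limma), against 834 and 751 of 9337 genes tested. Without the trend 2 were higher at that level (FZD3 and LGR4), as were 1161 of all 12701 genes tested. Each log2 difference kept its sign in all alternatives, except for FZD5 (0.0486 without EV control replicate 2, -0.0862 without EV control replicate 1) and LRP5 (0.0486 without KO replicate 1, -0.0930 without KO replicate 2). Leaving out 1 library gave 0 to 2 receptor genes called lower (FZD1 and FZD6, without KO replicate 1, where 841 of all genes were called lower and 1381 higher), and at an unadjusted p under 0.05 0 to 1 higher and 0 to 2 lower. Other listed pathway genes were then called only in the fits with a lone KO library. Over all genes, the ranges were 6 to 1381 higher and 5 to 881 lower, and at an unadjusted p 371 to 2775 and 155 to 2211. The high counts come from fits with a lone KO library, assumed to vary like the EV controls. Against 7 higher and 7 lower, counts over all genes were 3 and 3 with no filter, 3 higher without the trend, 4 lower with quantile normalization, and 0 and 0 without small RNA genes (limma; unadjusted p under 0.05 in 1227 higher and 945 lower genes). Replicate numbers are shared by the groups but nothing says that they pair libraries, and replicate differences were uncorrelated between groups (r = -0.0046 over 12701 genes, which are not independent). With the replicate block, 4 genes were higher and 8 lower, 583 were lower at an unadjusted p under 0.05 against 917, and 0 receptor genes passed (smallest adjusted p = 0.352). The cause of these shifts was not tested. Depth limits the lower receptor genes most, at 139 to 383 estimated fragments a library.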
